A study of Mus musculus with 6 samples.

Results

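The genes described here encode the proteins that load, fire and run DNA replication forks: the origin recognition complex (ORC), the licensing factors, the MCM helicase and its activators, the sliding clamp and its loader, the replicative polymerases, and the factors that supply nucleotides, join fragments, guard forks and put histones back. All 47 were chosen by symbol from the deposited raw counts, and all 47 were among the 25628 symbols of the table and the 14158 that passed the filter on low counts. Poly(A) RNA was sequenced from mouse TgSpi1 erythroleukaemic cells of line #722, from mice transgenic for Spi1. They are bone marrow leukaemic cells of the red cell lineage, and Spi1 encodes the transcription factor PU.1. The cells were grown with EPO (erythropoietin) and carry a doxycycline-inducible shRNA that targets Spi1. Cells given doxycycline for 48 h gave 3 libraries, numbered 1 to 3, and untreated cells, which carry the same shRNA without the inducer, gave another 3. The labels call them biological replicates without naming cultures or animals, so p-values measure the spread between these samples. All come from 1 line, and no library here had doxycycline without the shRNA, so the drug and the loss of Spi1 cannot be told apart.

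Origins are licensed in G1, when ORC, CDC6 and CDT1 load MCM2-7 double hexamers onto DNA, and geminin blocks reloading later in the cycle. In S phase CDC45 and GINS join MCM2-7 to form the active helicase, RFC loads PCNA, and polymerases alpha, delta and epsilon copy the strands. Many of these genes are classical E2F targets whose transcripts peak around the start of S phase. Erythroid precursors divide rapidly and leave the cycle as they mature.

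Total counts per library lay between 78926663 and 101276319. Spi1 had 84.8, 80.4 and 62.1 CPM (counts relative to the library total with TMM scaling) in doxycycline libraries 1, 2 and 3, against 415, 353 and 329.6 CPM in untreated libraries 1, 2 and 3. On the log2 scale doxycycline over untreated came to -2.27 (SE 0.17, edgeR adjusted p = 0.0030), and the groups did not overlap. Erythroid markers summed to 7313 to 9709 CPM with doxycycline and 5422 to 6430.5 CPM untreated over 12 genes, led by the transferrin receptor gene Tfrc. Tfrc had a mean of 2600 CPM over the libraries, so a few genes can carry the sum. Only 1 of the 12 was higher at an edgeR adjusted p under 0.05, and none was lower. Sums for granulocyte, monocyte and macrophage markers were 0.680 to 4.94 CPM with doxycycline and 4.42 to 21.8 CPM untreated over 10 genes. Of these, 5 passed the filter on low counts and 1 was lower at an edgeR adjusted p under 0.05. Sums for B cell, T and NK cell, and stromal and endothelial markers stayed at or under 5.07 CPM in each library. Megakaryocyte markers summed to 37.1 to 157 CPM with doxycycline and 63.9 to 299 CPM untreated, and mast cell and basophil markers to 8.65 to 50.8 CPM with doxycycline and 3.35 to 62.02 CPM untreated. Ly6g, Nkg7, Mcpt8, Prss34 and Cxcl12 had 3 or fewer counts in each library. Markers of the labelled lineage were thus by far the most abundant, and the part of the marker differences in the other results was not tested.

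Replication genes as a whole differed little with doxycycline. Log2 fold changes of the 47, doxycycline over untreated, ran from -0.60 for Rfc2 to 0.49 for Rfc4, with a median of 0.14 beside 0.0065 over all genes tested. 35 of 47 (74.5%) were above 0, beside 50.7% of all genes. None passed an adjusted p under 0.05 in edgeR's quasi-likelihood test with the group as the only term, where 2.59% of all genes did, 0.417% as higher and 2.18% as lower. The smallest adjusted p was 0.12. At an unadjusted p under 0.05 there were 7 (Cdc6, Mcm7, Gins1, Gins2, Rfc4, Rfc2 and Prim2), beside 15.4% of all genes. DESeq2 called 1 member, Rfc4, as higher, beside 2.06% of all genes. In bulk RNA a different share of cells in S phase and a different amount of RNA per cell cannot be told apart.

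Libraries of equal number deviated together from their group means, so a second fit took the replicate number as a block and is called the paired fit here. It called 10 of the 47 (21.3%), beside 25.8% of all genes. The risers were Cdc6, Mcm7, Gins1, Gins2, Pcna, Rfc4 and Pold2 (14.9% of the members, beside 10.3% of all genes). Those that fell were Orc5, Rfc2 and Prim2 (6.38%, beside 15.6%). The share called was thus near that of the whole transcriptome. The log2 difference had the same sign in all 3 pairs for 32 members, beside 57.4% of all genes: 26 were higher (55.3%, beside 28% of all genes) and 6 lower (12.8%, beside 29.4%). Groups did not overlap for 9 members, beside 20.6% of all genes, with 7 above the untreated libraries (14.9%, beside 8.88% of all genes) and 2 below them (4.26%, beside 11.7%). Without both libraries of number 1 the paired fit called Rfc2 and no other member, beside 368 genes higher and 880 lower over all genes. Without number 2 it called 5 members higher and 5 lower, beside 1310 and 2119 of all genes. Without number 3 it called 10 members higher and 4 lower, beside 2071 and 2677 of all genes. With all 6 libraries the counts over all genes were 1452 and 2206, so they also moved with the number left out. The filter on low counts was run anew each time, and the number of genes passing it is not given. These are thus counts and not shares, and they do not compare the members with all genes.

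**Figure D1:**
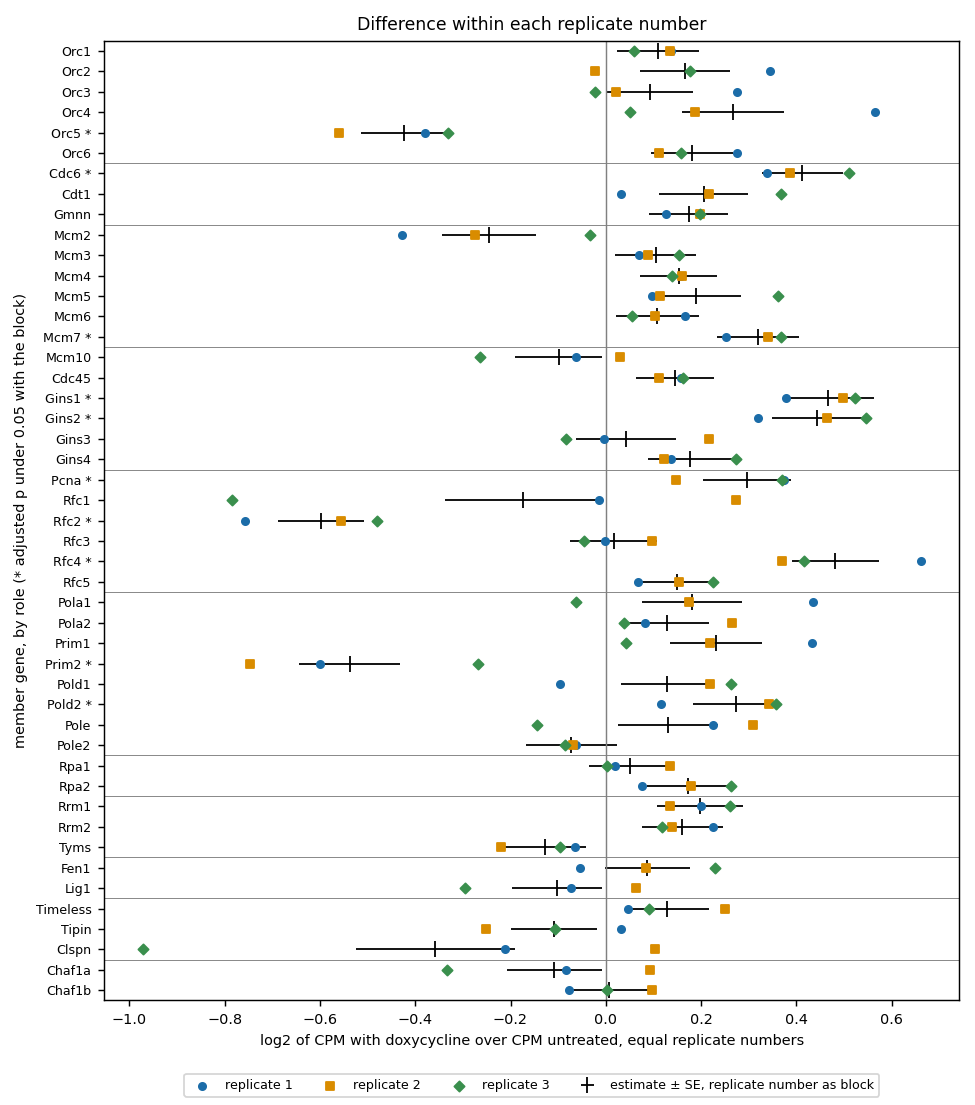
Log2 of CPM with doxycycline over CPM untreated within each replicate number (coloured points) for each of the 47 genes, ordered by role, with the estimate of the paired fit and its SE (black) and an asterisk where its adjusted p was under 0.05. The estimates lie between -0.60 for Rfc2 and 0.48 for Rfc4, and the 3 points of Rfc1 and Clspn are the furthest apart.

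Per kilobase (kb) of the principal transcript the levels of the 47 were highest for Pcna, at 388 CPM per kb with doxycycline and 314 CPM per kb untreated, with Rrm1 and Mcm6 next in the untreated libraries. At the low end Gins3 was at 11.3 CPM per kb with doxycycline and 10.99 CPM per kb untreated, and Gins2 at 14.4 CPM per kb with doxycycline and 10.7 CPM per kb untreated. The place of Gins2 rests on a transcript length of 3900 bases, against 555 coding bases. In CPM untreated Gins2 (41.7) was above Gins1 (29.6) and Gins3 (27.7). The length of a gene is that of its longest principal transcript, untranslated parts included. It comes from an annotation that may not be the one the reads were counted on. The order is thus uncertain for near neighbours, and also for genes whose transcript is much longer than its coding part. Counts of a member in a library lay between 1962 and 103428, where counting error is at most 2.26%, small beside the spread between libraries.

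**Figure D2:**
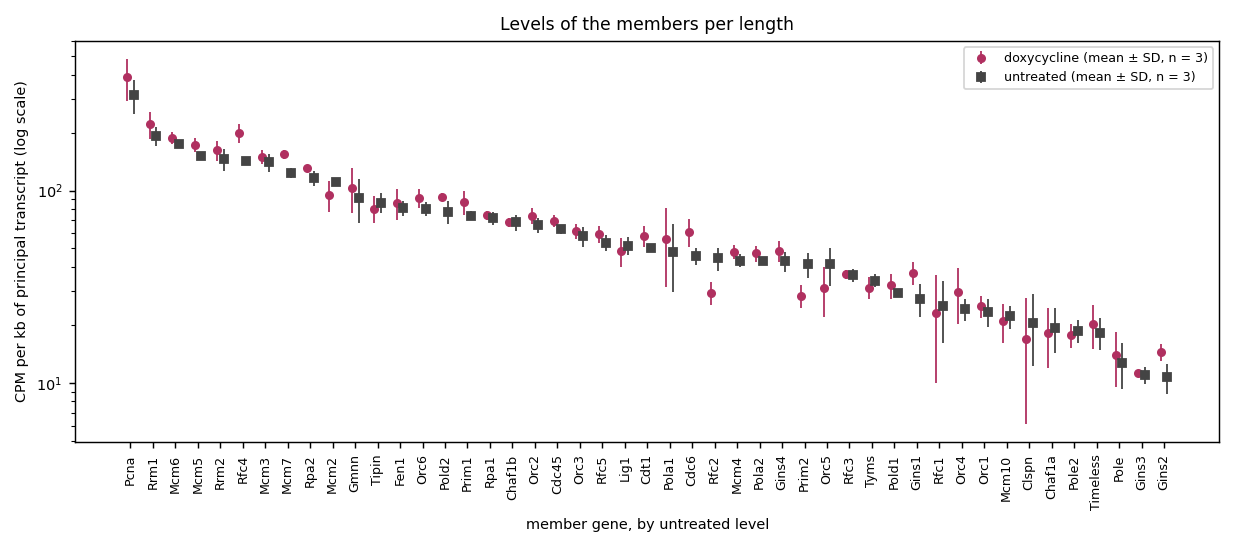
Level of each of the 47 genes in CPM per kb of the principal transcript (log scale, mean ± SD of 3 libraries), doxycycline in red left of untreated in grey, ordered by the untreated mean. Pcna leads at 388 CPM per kb with doxycycline and 314 CPM per kb untreated, and Gins2, the last in that order, was at 14.4 CPM per kb with doxycycline and 10.7 CPM per kb untreated. The rank of Gins2 rests on the length used, 3900 bases against 555 coding bases.

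ORC marks origins, and its 6 subunit genes had a median log2 fold change of 0.14. In the paired fit 1 of the 6 was called, Orc5 (chr5:22486485-22550429, minus strand, GRCm38), which fell. Orc5 had 59.6, 50.02 and 86.7 CPM in doxycycline libraries 1, 2 and 3, against 77.5, 73.8 and 109 CPM in untreated libraries 1, 2 and 3. Libraries of number 3 were the high ones in both groups, so the groups overlapped although each doxycycline library was below its untreated partner. The differences within numbers were -0.38, -0.56 and -0.33 on the log2 scale, and the paired estimate was -0.42 (SE 0.090, edgeR adjusted p = 0.0069), against -0.41 (SE 0.25, edgeR adjusted p = 0.53) without the block. A transcribed processed pseudogene, Gm15421, overlaps the span of Orc5 on the same strand in the GENCODE M21 annotation. Whether the 2 share exons or sequence was not examined, so the split of reads between them is uncertain. Gm15421 was at 41.7 ± 9.34 CPM with doxycycline and 29.6 ± 4.10 CPM untreated (SD, n = 3 each), and it rose in the paired fit with a log2 fold change of 0.48 (SE 0.12, edgeR adjusted p = 0.014). The sum of both was 107 ± 24.9 CPM with doxycycline and 116 ± 23.4 CPM untreated (SD, n = 3 each). By library it was 109, 81.3 and 131 CPM in doxycycline libraries 1, 2 and 3, against 106, 99.8 and 143 CPM in untreated libraries 1, 2 and 3. The sum was thus higher with doxycycline in number 1 and lower in numbers 2 and 3, and it was not tested.

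Among the other subunits Orc4 had the widest range of pair differences, 0.56, 0.19 and 0.050, with 166, 107 and 90.8 CPM in doxycycline libraries 1, 2 and 3, against 112, 94.4 and 87.7 CPM in untreated libraries 1, 2 and 3. Doxycycline library 1 alone stood high. Orc1, which recruits the complex to chromatin, Orc2, Orc3 and Orc6 had log2 fold changes of 0.11, 0.17, 0.090 and 0.18, and none was called in either fit. Orc6 overlaps Vps35 on the opposite strand, and the kit does not mark strand. Per kb Orc6 was the most abundant subunit mRNA at 91.2 CPM per kb with doxycycline and 80.3 CPM per kb untreated, and Orc1 was among the least, with Orc4, at 25.1 CPM per kb with doxycycline and 23.3 CPM per kb untreated. These ranks depend on the transcript lengths used, such as 4066 bases for Orc4 and 3561 for Orc2, against 1299 and 1728 coding bases.

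CDC6 and CDT1 load the helicase, and geminin (Gmnn) holds CDT1 back. All 3 genes were higher in each pair, and Cdc6 rose in the paired fit. Cdc6 had 142, 141 and 187 CPM in doxycycline libraries 1, 2 and 3, against 113, 108 and 131 CPM in untreated libraries 1, 2 and 3. Each doxycycline library was above each untreated one, and number 3 was the high one in both groups. The paired log2 fold change of Cdc6 (chr11:98907801-98923940, plus strand) was 0.41 (SE 0.085, edgeR adjusted p = 0.0057), against 0.42 (SE 0.16, edgeR adjusted p = 0.28) without the block. Cdt1 also had groups that did not overlap, at 128 ± 15.9 CPM with doxycycline and 110.1 ± 2.24 CPM untreated (SD, n = 3 each), with an edgeR adjusted p of 0.13 in the paired fit. Gmnn followed the replicate number: 109, 90.1 and 150.2 CPM in doxycycline libraries 1, 2 and 3, against 99.8, 78.6 and 131 CPM in untreated libraries 1, 2 and 3, with pair differences of 0.13, 0.20 and 0.20. Its edgeR adjusted p was 0.15 in the paired fit.

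MCM2 to MCM7 form the ring that opens the double helix. In these 6 genes the paired fit called Mcm7, and 5 of the 6 were higher in each pair while Mcm2 was lower in each. Mcm7 had 455, 432 and 482 CPM in doxycycline libraries 1, 2 and 3, against 382, 342 and 374 CPM in untreated libraries 1, 2 and 3. The groups did not overlap, and library 2 was the lowest in each. For Mcm7 (chr5:138164583-138172422, minus strand) the paired estimate was 0.32 (SE 0.086, edgeR adjusted p = 0.022) and the one without the block 0.32 (SE 0.12, edgeR adjusted p = 0.25). The call of Mcm7 was lost without number 1 and without number 2. Mcm7 overlaps Cops6 and Ap4m1 on the opposite strand. Cops6 was at 220.5 ± 28.1 CPM with doxycycline and 199 ± 33.1 CPM untreated (SD, n = 3 each).

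Mcm2 stood apart from its partners in sign. Mcm2 had 269, 307 and 385 CPM in doxycycline libraries 1, 2 and 3, against 361, 372 and 394 CPM in untreated libraries 1, 2 and 3. Number 3 was nearly equal in both groups and number 1 was the most apart, with pair differences of -0.43, -0.28 and -0.033 and an edgeR adjusted p of 0.095 in the paired fit. Mcm3, Mcm4, Mcm5 and Mcm6 had log2 fold changes of 0.10, 0.15, 0.19 and 0.11, none called. For Mcm5, at 585 ± 46.7 CPM with doxycycline and 512 ± 16.7 CPM untreated (SD, n = 3 each), the groups did not overlap. Their products enter the ring in equal number, but per kb their mRNA levels were unequal. Mcm6 was at 188 CPM per kb with doxycycline and 174 CPM per kb untreated, Mcm4 at 48.03 CPM per kb with doxycycline and 43.2 CPM per kb untreated, and the other 4 lay between them in both groups. For a difference between replicate numbers the edgeR adjusted p of the 6 genes was 0.11 or more.

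Promoter sequence was available for 38 of the 47 genes in the RefSeq table (GRCm38.p6; 250 bases before to 50 after each start). An E2F-type motif, TTTCGCGC, TTTGGCGC, TTTCCCGC or TTTGCCGC on either strand, matched 15 of those 38 genes (39.5%), beside 2.6% of all genes in that table. These motifs can overlap one another, as they do in Mcm5 and in Mcm6. The PU.1-type motif GAGGAAGT matched 2 of the 38 (Orc4 and Rfc1, 5.26%), beside 3.69% of all. The 6 promoters that follow are examples. They belong to some of the licensing and helicase genes with matches (Cdc6, Mcm5, Mcm6, Mcm7). The others belong to 2 members called in the paired fit in opposite directions without one (Rfc4, Orc5). Further matched genes of these roles, such as Cdt1, Mcm3 and Gins3, are not shown. Capitals mark the E2F-type matches.
Cdc6, chr11:98907901-98908200, plus strand: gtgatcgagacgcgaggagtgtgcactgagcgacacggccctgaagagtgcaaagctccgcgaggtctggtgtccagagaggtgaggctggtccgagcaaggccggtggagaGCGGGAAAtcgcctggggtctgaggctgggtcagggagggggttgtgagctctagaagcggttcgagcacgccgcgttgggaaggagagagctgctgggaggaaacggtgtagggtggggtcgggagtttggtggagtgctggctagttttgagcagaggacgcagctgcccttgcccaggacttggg
Mcm5, chr8:75109259-75109558, plus strand: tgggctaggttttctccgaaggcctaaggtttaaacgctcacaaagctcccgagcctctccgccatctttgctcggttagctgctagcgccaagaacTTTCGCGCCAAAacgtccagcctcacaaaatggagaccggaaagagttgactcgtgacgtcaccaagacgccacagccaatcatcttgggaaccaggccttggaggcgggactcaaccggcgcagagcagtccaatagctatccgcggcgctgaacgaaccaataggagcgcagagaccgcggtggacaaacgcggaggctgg
Mcm6, chr1:128359656-128359955, minus strand: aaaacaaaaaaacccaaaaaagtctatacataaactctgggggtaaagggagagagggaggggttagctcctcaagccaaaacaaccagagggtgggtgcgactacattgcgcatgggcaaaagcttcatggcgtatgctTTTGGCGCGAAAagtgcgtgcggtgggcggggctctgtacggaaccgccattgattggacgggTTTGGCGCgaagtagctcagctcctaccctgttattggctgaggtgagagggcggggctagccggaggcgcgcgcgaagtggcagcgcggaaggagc
Mcm7, chr5:138171834-138172133, minus strand: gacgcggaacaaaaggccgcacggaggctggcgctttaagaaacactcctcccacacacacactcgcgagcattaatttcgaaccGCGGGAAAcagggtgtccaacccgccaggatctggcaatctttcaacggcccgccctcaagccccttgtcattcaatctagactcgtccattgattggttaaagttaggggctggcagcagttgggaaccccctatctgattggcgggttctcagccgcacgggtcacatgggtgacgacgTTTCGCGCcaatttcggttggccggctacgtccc
Rfc4, chr16:23127681-23127980, minus strand: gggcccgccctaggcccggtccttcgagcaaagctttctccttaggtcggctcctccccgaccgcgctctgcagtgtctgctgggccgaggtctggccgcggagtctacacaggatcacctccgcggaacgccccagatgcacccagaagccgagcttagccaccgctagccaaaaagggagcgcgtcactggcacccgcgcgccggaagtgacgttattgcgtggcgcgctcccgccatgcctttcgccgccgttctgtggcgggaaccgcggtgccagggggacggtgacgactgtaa
Orc5, chr5:22550289-22550588, minus strand: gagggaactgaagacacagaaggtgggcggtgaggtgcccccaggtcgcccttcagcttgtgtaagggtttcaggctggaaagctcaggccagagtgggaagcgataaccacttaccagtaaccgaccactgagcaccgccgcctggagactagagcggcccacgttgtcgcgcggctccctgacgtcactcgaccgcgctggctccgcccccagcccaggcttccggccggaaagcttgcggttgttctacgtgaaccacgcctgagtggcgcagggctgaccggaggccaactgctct
In Cdc6 the match is TTTCCCGC on the opposite strand, from -138 to -131 counted from the annotated start. In Mcm5 TTTCGCGC from -153 to -146 and TTTGGCGC on the opposite strand from -149 to -142 overlap. Members with a match had a median log2 fold change of 0.11 (n = 15 genes), and those with a promoter but no match 0.15 (n = 23). Of the called members, 2 (Cdc6 and Mcm7) had a match, 4 (Orc5, Pcna, Rfc4 and Pold2) had none, and 4 (Gins1, Gins2, Rfc2 and Prim2) were not in the table. A gene with several promoters counts as matched if any of them matches. Mcm7 has a second promoter in that table, chr5:138171217-138171516, without a match and not shown. The promoters shown for Cdc6 and Mcm7 lie within the GENCODE M21 coordinates given above for these genes. Positions are counted from the RefSeq start, which differs there. A match describes the letters, not binding.

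Helicase activation needs CDC45, the 4 GINS subunits and MCM10. Gins1 and Gins2 rose in the paired fit, and Cdc45, Gins3, Gins4 and Mcm10 were not called. Gins1 had 46.4, 40.5 and 35.02 CPM in doxycycline libraries 1, 2 and 3, against 35.7, 28.7 and 24.4 CPM in untreated libraries 1, 2 and 3. Each pair showed the same direction, but library 1 was the high one and library 3 the low one in both groups, so untreated library 1 was as high as doxycycline library 3. Gins2 had 62.7, 52.7 and 53.7 CPM in doxycycline libraries 1, 2 and 3, against 50.2, 38.2 and 36.8 CPM in untreated libraries 1, 2 and 3. Here doxycycline libraries were all above the untreated ones, with library 1 the high one in each group. Gins2 overlaps Gse1 on the opposite strand, which was at 79.1 ± 44.2 CPM with doxycycline and 74.7 ± 24.8 CPM untreated (SD, n = 3 each), so the split of reads between them is uncertain. Paired estimates were 0.47 (SE 0.096, edgeR adjusted p = 0.0056) for Gins1 (chr2:150905400-150931280, plus strand) and 0.44 (SE 0.094, edgeR adjusted p = 0.0066) for Gins2 (chr8:120578633-120589304, minus strand). Without the block they were 0.46 (SE 0.19, edgeR adjusted p = 0.32) and 0.43 (SE 0.17, edgeR adjusted p = 0.29).

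The remaining GINS genes differed less. Gins4 was at 65.3 ± 8.06 CPM with doxycycline and 57.7 ± 6.56 CPM untreated (SD, n = 3 each) and higher in each pair, and Gins3 at 28.4 ± 0.979 CPM with doxycycline and 27.7 ± 2.84 CPM untreated (SD, n = 3 each), with pair differences of -0.0044, 0.22 and -0.085. Cdc45 had 158, 138 and 151 CPM in doxycycline libraries 1, 2 and 3, against 141, 127 and 135 CPM in untreated libraries 1, 2 and 3, which overlapped by library 1 of the untreated group. Mcm10 was highest in number 2 of both groups, with 93.7, 128 and 83.8 CPM in doxycycline libraries 1, 2 and 3, against 97.8, 125 and 100.7 CPM in untreated libraries 1, 2 and 3. The GINS complex is built from equal numbers of its subunits, whereas per kb Gins4 was at 48.4 CPM per kb with doxycycline and 42.8 CPM per kb untreated, and Gins3 at 11.3 CPM per kb with doxycycline and 10.99 CPM per kb untreated. The size of that gap depends on the lengths used, 1349 and 2519 bases, against 669 and 648 coding bases.

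**Figure D3:**
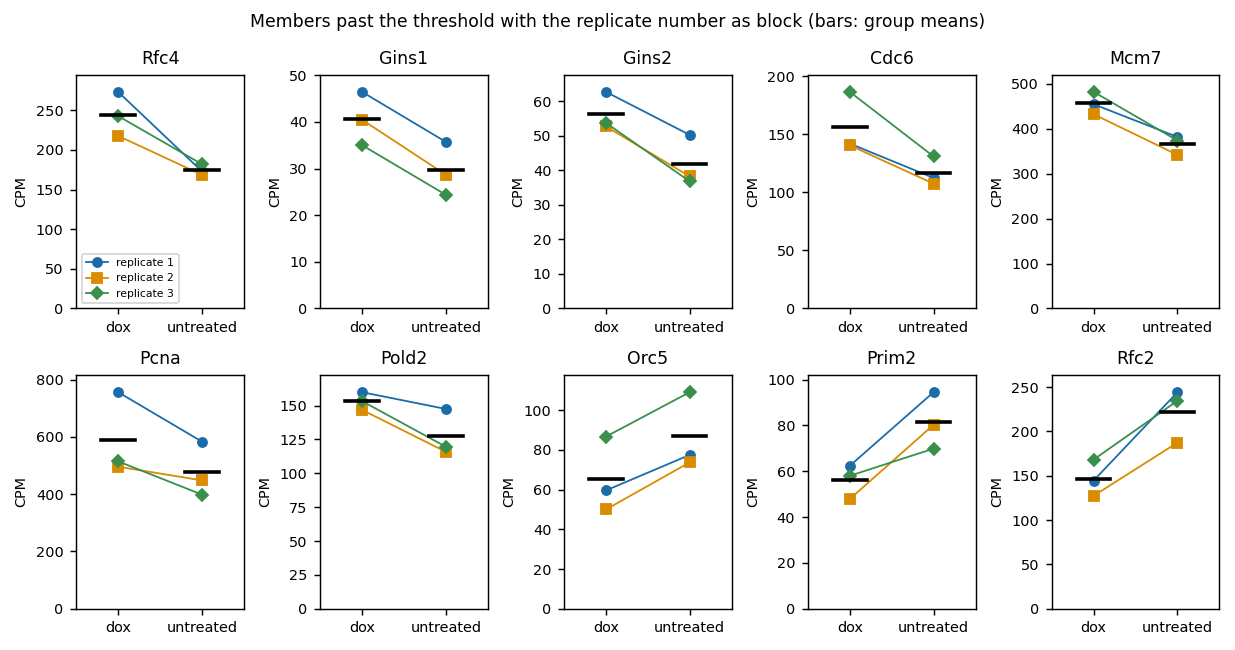
CPM in each library of the 10 genes called in the paired fit, doxycycline at the left and untreated at the right of each panel, with a line joining libraries of equal replicate number and black bars at group means. Every line slopes in 1 direction within a panel: higher with doxycycline for Rfc4, Gins1, Gins2, Cdc6, Mcm7, Pcna and Pold2, and lower for Orc5, Prim2 and Rfc2.

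PCNA is the sliding clamp, and RFC1 to RFC5 form the ATPase that opens and loads it. The loader subunits moved in opposite directions in the paired fit: Rfc4 rose and Rfc2 fell, while Rfc1, Rfc3 and Rfc5 were not called. Rfc4 had 273, 218 and 243 CPM in doxycycline libraries 1, 2 and 3, against 173, 169 and 182 CPM in untreated libraries 1, 2 and 3. Rfc2 had 145, 127 and 168 CPM in doxycycline libraries 1, 2 and 3, against 244, 187 and 235 CPM in untreated libraries 1, 2 and 3. Neither gene's groups overlapped, and the pair differences were 0.66, 0.37 and 0.42 for Rfc4 and -0.76, -0.56 and -0.48 for Rfc2. The paired estimate was 0.48 (SE 0.091, edgeR adjusted p = 0.0036) for Rfc4 (chr16:23113943-23127737, minus strand), the largest rise of the 47, and -0.60 (SE 0.090, edgeR adjusted p = 9.4e-04) for Rfc2 (chr5:134581366-134601805, plus strand), the largest fall. Without the block the values were 0.49 (SE 0.13, edgeR adjusted p = 0.12) and -0.60 (SE 0.16, edgeR adjusted p = 0.13), and DESeq2 gave Rfc4 an adjusted p of 0.041.

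Both genes share ground with others on the opposite strand. Rfc4 overlaps Eif4a2, which was at 312 ± 42.2 CPM with doxycycline and 311 ± 60.8 CPM untreated (SD, n = 3 each). Rfc2 overlaps Lat2, an adaptor of myeloid and B cells, which was at 0.317 ± 0.0961 CPM with doxycycline and 1.42 ± 0.370 CPM untreated (SD, n = 3 each), levels far under the difference in Rfc2. The split of reads between such partners is uncertain. Rfc5 was higher in each pair (0.067, 0.15 and 0.23) without a call, and Rfc3 was at 48.3 ± 2.60 CPM with doxycycline and 47.8 ± 3.73 CPM untreated (SD, n = 3 each). Per kb Rfc4 was at 199 CPM per kb with doxycycline and 142 CPM per kb untreated, and Rfc2 at 29.4 CPM per kb with doxycycline and 44.5 CPM per kb untreated. That gap depends on the transcript lengths used, 1228 bases for Rfc4 and 4995 for Rfc2, against 1110 and 1047 coding bases. In CPM Rfc2 was above Rfc4 untreated (222 against 174) and below it with doxycycline (147 against 245). Their order in untreated cells is thus uncertain.

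Pcna rose in the paired fit. Pcna had 756, 496 and 515 CPM in doxycycline libraries 1, 2 and 3, against 583, 448 and 399 CPM in untreated libraries 1, 2 and 3. Library 1 was the high one in both groups, and untreated library 1 stood above doxycycline libraries 2 and 3. The paired log2 fold change of Pcna (chr2:132249162-132253314, minus strand) was 0.30 (SE 0.093, edgeR adjusted p = 0.040), with pair differences of 0.37, 0.15 and 0.37, against 0.31 (SE 0.22, edgeR adjusted p = 0.60) without the block. A pseudogene symbol, Pcna-ps2, was counted at 195 ± 59.3 CPM with doxycycline and 154 ± 32.7 CPM untreated (SD, n = 3 each), with a paired estimate of 0.32 (SE 0.089, edgeR adjusted p = 0.024). Reads of near-identical copies may be divided between them, so the value of Pcna is uncertain, and the sum of both was 784 ± 204 CPM with doxycycline and 631 ± 128 CPM untreated (SD, n = 3 each). 

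Polymerase alpha-primase (Pola1, Pola2, Prim1, Prim2) starts each strand, and polymerases delta (Pold1, Pold2) and epsilon (Pole, Pole2) extend it. Among the 8 genes Pold2 rose and Prim2 fell in the paired fit. Prim2 had 62.4, 47.9 and 58.03 CPM in doxycycline libraries 1, 2 and 3, against 94.5, 80.3 and 69.9 CPM in untreated libraries 1, 2 and 3. The groups did not overlap, and the gap was narrowest in number 3, with pair differences of -0.60, -0.75 and -0.27. Pold2 had 159.9, 147 and 153 CPM in doxycycline libraries 1, 2 and 3, against 147, 116 and 119.6 CPM in untreated libraries 1, 2 and 3. Here untreated library 1 lay just above doxycycline library 2, so the groups overlapped. The paired estimates were -0.54 (SE 0.11, edgeR adjusted p = 0.0046) for Prim2 (chr1:33453810-33669795, minus strand) and 0.27 (SE 0.089, edgeR adjusted p = 0.047) for Pold2 (chr11:5872180-5878292, minus strand), and without the block -0.54 (SE 0.17, edgeR adjusted p = 0.18) and 0.26 (SE 0.14, edgeR adjusted p = 0.44). The call of Pold2 was lost when either number 1, 2 or 3 was left out. Prim1, the catalytic primase subunit, had groups that did not overlap in the other direction, at 138 ± 19.3 CPM with doxycycline and 117 ± 6.41 CPM untreated (SD, n = 3 each), with an edgeR adjusted p of 0.10 in the paired fit.

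Pola1, the catalytic subunit of polymerase alpha, spread most among the polymerase genes. Pola1 had 350.1, 401 and 151 CPM in doxycycline libraries 1, 2 and 3, against 259, 356 and 158 CPM in untreated libraries 1, 2 and 3. Library 3 was the low one in both groups, and the ranges of the groups overlapped. Pole, the leading-strand polymerase, had 73.3, 135 and 91.6 CPM in doxycycline libraries 1, 2 and 3, against 62.7, 109 and 101.3 CPM in untreated libraries 1, 2 and 3, with library 2 the highest in both. Pola2, Pold1 and Pole2 had log2 fold changes of 0.13, 0.14 and -0.072, none called.

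In the remaining 5 roles edgeR called no gene in either fit, none was at an unadjusted p under 0.05 without the block, and the smallest adjusted p of the paired fit was 0.14. RPA coats single-stranded DNA, and Rpa2 had 244, 224 and 241 CPM in doxycycline libraries 1, 2 and 3, against 231, 198 and 201 CPM in untreated libraries 1, 2 and 3. Of the untreated libraries, library 1 reached into the doxycycline range and the other two did not. Rpa1 was the steadiest of the 47, at 378 ± 19.8 CPM with doxycycline and 366 ± 29.00 CPM untreated (SD, n = 3 each), with a 1.16-fold range over the 6 libraries. Ribonucleotide reductase makes the deoxynucleotides, and its large subunit gene, Rrm1, had 866, 756 and 1038 CPM in doxycycline libraries 1, 2 and 3, against 755, 689 and 867 CPM in untreated libraries 1, 2 and 3. Rrm1 and Rrm2 were higher in each pair (0.20, 0.13 and 0.26, and 0.22, 0.14 and 0.12), and library 2 was the lowest in both groups. Tyms, which makes thymidylate, was lower in each pair (-0.066, -0.22 and -0.097), at 98.99 ± 12.99 CPM with doxycycline and 108 ± 8.49 CPM untreated (SD, n = 3 each). Per kb Rrm1 came next after Pcna at 222 CPM per kb with doxycycline and 193 CPM per kb untreated.

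FEN1 and DNA ligase 1 trim and join Okazaki fragments. Fen1 had 179, 188 and 248 CPM in doxycycline libraries 1, 2 and 3, against 186, 177 and 211 CPM in untreated libraries 1, 2 and 3. Doxycycline library 3 was high and the others overlapped, with pair differences of -0.055, 0.085 and 0.23. Lig1 was at 154 ± 26.3 CPM with doxycycline and 164 ± 17.2 CPM untreated (SD, n = 3 each). Fen1 overlaps Tmem258 on the opposite strand. The subunits of the chromatin assembly factor CAF-1 were at 132 ± 7.17 CPM with doxycycline and 131 ± 12.3 CPM untreated (SD, n = 3 each) for Chaf1b, and Chaf1a had 71.3, 139 and 91.9 CPM in doxycycline libraries 1, 2 and 3, against 75.6, 131 and 116 CPM in untreated libraries 1, 2 and 3. Chaf1a was highest in library 2 and lowest in library 1 of both groups.

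Timeless, TIPIN and claspin keep polymerase and helicase coupled and pass on the checkpoint signal. Clspn had 48.5, 148 and 59.6 CPM in doxycycline libraries 1, 2 and 3, against 56.1, 138 and 117 CPM in untreated libraries 1, 2 and 3. The highest library was 3.05 times the lowest, the widest range of the 47, and both came from the doxycycline group. Pair differences of Clspn were -0.21, 0.10 and -0.97, and its estimate was -0.28 (SE 0.48, edgeR adjusted p = 0.86) without the block and -0.36 (SE 0.17, edgeR adjusted p = 0.15) with it. Timeless was higher in each pair (0.046, 0.25 and 0.091) and Tipin was not (0.033, -0.25 and -0.11). Tipin was lowest in library 2 of both groups and Timeless highest there.

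**Figure D4:**
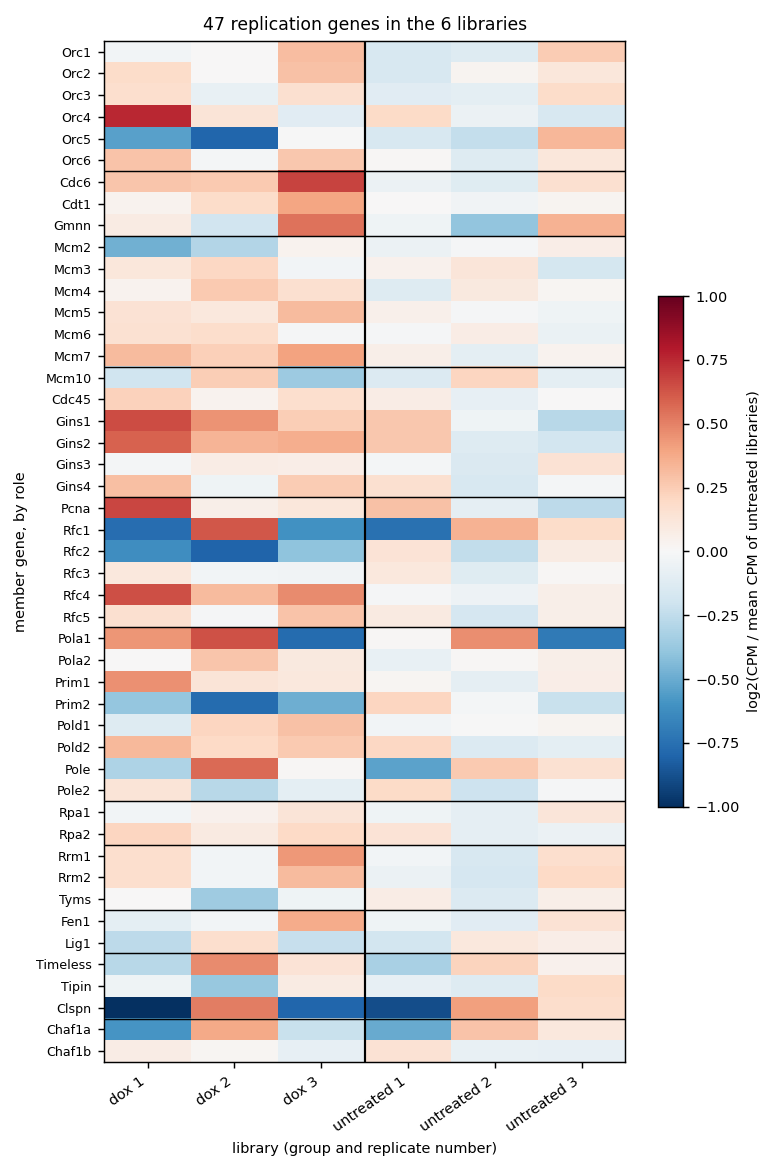
Log2 of the CPM of each library over the mean CPM of the 3 untreated libraries for the 47 genes, in blocks by role, doxycycline libraries at the left and untreated at the right. Colours are capped at 1 in either direction. Clspn, Rfc1, Pole and Chaf1a are red in both libraries of number 2 and blue in both of number 1.

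Differences between replicate numbers were more common among these genes than differences with doxycycline. In the paired fit 20 of 47 (42.6%) differed between numbers at an edgeR adjusted p under 0.05, beside 43.3% of all genes, so the members were like the rest in this. The 20 included Pola1, Clspn, Chaf1a, Gmnn, Orc5, Pole, Rfc1 and Timeless, each with an adjusted p of at most 0.0037. Rfc1, the largest subunit of the clamp loader, had 70.05, 182 and 78.01 CPM in doxycycline libraries 1, 2 and 3, against 70.7, 151 and 134 CPM in untreated libraries 1, 2 and 3. As with Clspn, untreated library 3 went with number 2 and doxycycline library 3 with number 1.

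The members that were highest in both libraries of number 2 all had long coding sequences. Coding genes were split into 5 equal bins by coding length (GENCODE M21), and the longest bin, above 2430 bases, held 14 members. Of these 14, 11 were highest in library 2 of both groups (Mcm3, Mcm4, Mcm6, Mcm10, Rfc1, Pola1, Pole, Lig1, Timeless, Clspn and Chaf1a), beside 63.5% of all genes in that bin and 24.5% of all genes tested. None of the other 33 members was, beside 5.25%, 12.5%, 20.5% and 35.8% of all genes in the shorter bins, from the shortest up. Conversely 17 members, all outside the longest bin, were lowest in library 2 of both groups, beside 22.6% of all genes. From the shortest bin up they were 2 of 5, 7 of 10, 4 of 7 and 4 of 11 members. The shares of all genes in those bins were 44.5%, 30.8%, 18.5% and 8.42%. Over all genes of the longest bin the median deviation from the mean of the 6 libraries, in log2(CPM + 0.5), was -0.27, 0.27 and -0.21 in doxycycline libraries 1, 2 and 3, against -0.17, 0.28 and 0.079 in untreated libraries 1, 2 and 3. For the 14 members it was -0.19, 0.26 and -0.067 with doxycycline, against -0.16, 0.17 and 0.058 untreated. Number 3 thus differed between the groups in long genes at large.

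**Figure D5:**
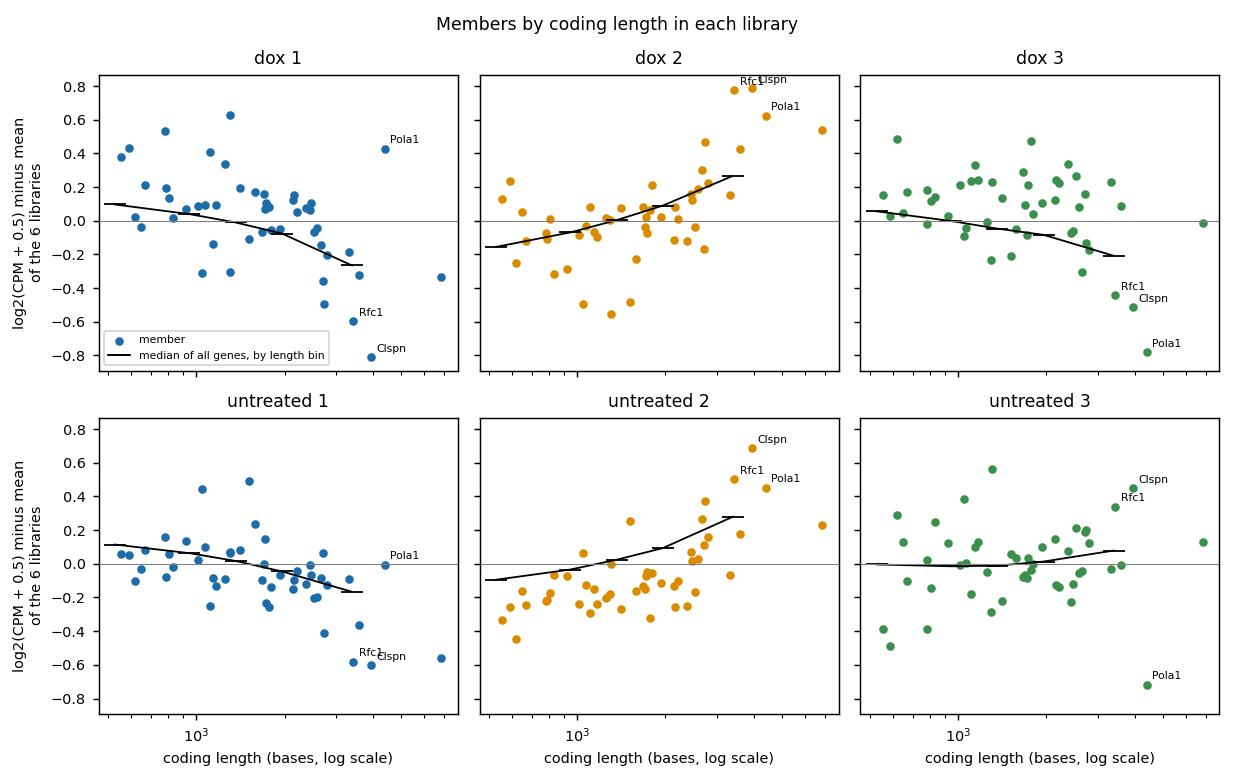
Deviation of each of the 47 genes (points) from its mean over the 6 libraries, in log2(CPM + 0.5), against coding length on a log scale, in 1 panel per library, doxycycline in the top row and untreated in the bottom row. The black line joins the medians of all coding genes in 5 bins of coding length, which climb in both libraries of number 2 and descend in both of number 1 and in doxycycline library 3.

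Coding length also moved with the comparison of the groups. Over all genes the median log2 fold change was 0.032 in the shortest bin and -0.11 in the longest, and for the members 0.18 (5 genes) and 0.10 (14 genes). The 10 members called in the paired fit were all among the shorter 33. The share of all genes called in each bin was not taken, so no link of calls with length can be read from this. With the trend of each library on coding length removed, an alternative chosen after the data were seen, the paired fit called 15 members, beside 29.8% of all genes, 12 as higher and 3 as lower, beside 14.7% and 15.1% of all genes. The 10 earlier calls were kept, and Orc4, Mcm4, Pola1, Pole and Timeless were added as higher, with log2 fold changes of 0.30, 0.25, 0.36, 0.38 and 0.28. The median of the members was then 0.19, beside 0.041 over all genes. All members had a coding length, but genes without an annotated one count among all genes here with no trend removed.

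Other replication genes gave a similar picture. Of 63 genes from 5 lists, Pole3, a histone-fold subunit of polymerase epsilon that is shared with a chromatin remodeller, fell without the block, and no other was called, beside 2.18% of all genes lower and 0.417% higher. Pole3 had 67.6, 65.7 and 93.8 CPM in doxycycline libraries 1, 2 and 3, against 146, 141 and 156 CPM in untreated libraries 1, 2 and 3. The groups were far apart, with a log2 fold change of -0.96 (SE 0.17, edgeR adjusted p = 0.035) and pair differences of -1.11, -1.10 and -0.73. Its call was lost without doxycycline library 1 or 2 or any 1 untreated library, where edgeR adjusted p lay between 0.078 and 0.15. At an unadjusted p under 0.05 there were 10 of 63, beside 15.4% of all genes, a share near the background.

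In the paired fit 15 of the 63 rose (23.8%, beside 10.3%) and 5 fell (7.94%, beside 15.6%). All those named in this paragraph were picked after their values were seen. Among the deoxynucleotide enzymes the risers included Tk1 (0.43), Dut (0.46), Dck (0.44) and Rrm2b (0.45). Among 19 genes of licensing and firing 7 rose, including both subunits of the origin-firing kinase, Cdc7 (0.37) and Dbf4 (0.34), and 2 parts of the ubiquitin ligase that destroys CDT1, Dtl (0.54) and Cul4a (0.50). Dtl was at 282 ± 15.6 CPM with doxycycline and 194 ± 14.9 CPM untreated (SD, n = 3 each). Of 10 genes of S phase entry Ccne1, cyclin E1, rose (0.75), while its relative Ccne2 and the factor E2f3 fell (-0.32 and -0.32). Of 9 genes of replicating chromatin Supt16, a subunit of the histone chaperone FACT, fell (-0.34). Of 17 accessory genes Rpa3 and Rnaseh2c rose and Pole3 and Pold4 fell.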

How the data were processed

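Poly(A) RNA libraries were made with the TruSeq v2 kit, which does not mark strand, per the labels' protocols. The deposited values are whole-number raw counts per gene symbol made by the authors, with a smallest value of 1 in each library. The submitters' processing notes name bcl2fastq 2.17.1.14, STAR, DESeq2, mm10 and GRCm38 without roles, and how reads were counted, on which annotation and with which strand setting, is not given in the sources used here. Counts were tested in R 4.3.3 with edgeR 4.0.16 (filterByExpr, TMM, glmQLFit, glmQLFTest, 2-sided), Benjamini-Hochberg adjustment over all 14158 genes tested and a threshold of 0.05. The members and lists were chosen with earlier results of these data known.

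The first fit had the group as its only term, with all 6 libraries. Deviations from group means correlated at 0.83, 0.83 and 0.75 within equal replicate numbers, so the numbers pair the samples. Between unlike numbers the correlations were -0.69 to -0.11. Deviations in a group sum to 0 for each gene, so values below 0 there add no separate evidence of pairing. The pairing comes from these data, since no label ties a number to a day or culture. With the replicate block the common coefficient of variation was 11.3%, against 28.6% without it, and 2 residual degrees of freedom remained of 4.

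Values by library were given, by rule, for members called in either fit and for the member of each role with the largest log2 fold change; those of Orc4, Gmnn, Mcm2, Cdc45, Mcm10, Pola1, Pole and Rfc1 were added after values were seen. The rule named other replication genes where called without the block (Pole3); further ones called in the paired fit were named after their values were seen, and 1 of those is not reported here. Levels per kb used the longest principal transcript of each gene in GENCODE M21, and coordinates are those of that annotation on GRCm38. Overlaps between genes were taken from whole-gene spans, and shared exons were not examined. Promoters came from RefSeq (GRCm38.p6). Alternatives were DESeq2 1.42.0, its size factors in edgeR, no filter on low counts, 1 taken off each value, each library or replicate number left out, and, added after seeing the data, a loess trend of each library on log coding length removed as an offset. Genes without an annotated coding length had no such trend removed. The fits were also run on simulated counts, without replicate effects for the first fit and with fully shared ones for the paired fit. Those settings are unlike these data, so they do not measure how either fit performs here.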

Additional observations from a re-analysis of the deposited data

How the results depend on the processing

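With 3 libraries a group and adjusted p-values shared over all genes, the calls depended on the model, and the cause was not tested. Counts of calls follow in the order replicate block, DESeq2, DESeq2 with the block, the block without number 1, 2 or 3, and the block with the coding length trend removed. All genes had 1452, 291, 1436, 368, 1310, 2071 and 2075 higher and 2206, 722, 1966, 880, 2119, 2677 and 2141 lower calls, against 59 and 308 without the block. Members had 7, 1, 7, 0, 5, 10 and 12 higher and 3, 0, 3, 1, 5, 4 and 3 lower, against 0 and 0. The other replication genes had 15, 3, 16, 5, 13, 21 and 23 higher and 5, 1, 5, 1, 4, 3 and 4 lower, against 0 and 1. With all 6 libraries these are out of 14158 genes, 47 members and 63 other replication genes. With a library or number left out the filter was run anew, so the calls there are counts and not shares. The trend removed without the block gave 117 genes higher and 432 lower, and no member. Leaving out each library in turn without the block gave 0 to 26 genes higher and 35 to 242 lower, 0 members, and 0 to 1 other replication genes lower. It gave 8 to 15 members higher and 2 to 4 lower without overlap, beside 11.5% to 18.2% and 14.1% to 19.8% of all genes, since fewer libraries overlap less. The members' median of 0.14 was 0.18 with the trend removed and 0.19 with the block as well, where the median of all genes was 0.045 and 0.041, and 0.091 to 0.16 with a library left out. Spi1 kept its call throughout these settings. Some members changed sign, none of them called in the paired fit over all 6 libraries. With the block, Chaf1b was -0.033, Gins3 -0.040 and Rfc3 -0.019 without number 2, and Chaf1a 0.0068 and Rfc1 0.13 without number 3. With the trend removed, Chaf1a was 0.00035, Lig1 0.0056 and Mcm10 0.0044, and with the block as well Lig1 was 0.0066 and Mcm10 0.0026. With a library left out, log2 fold changes ranged as follows: Chaf1a -0.40 to 0.11, Chaf1b -0.036 to 0.11, Clspn -0.94 to 0.0028, Fen1 -0.051 to 0.19, Gins3 -0.033 to 0.12, Gmnn -0.040 to 0.38, Mcm10 -0.28 to 0.047, Orc1 -0.00085 to 0.25, Pola1 -0.038 to 0.56, Pole -0.14 to 0.32, Pole2 -0.19 to 0.057, Rfc1 -0.68 to 0.13, Rfc3 -0.045 to 0.091, Timeless -0.055 to 0.31, Tipin -0.19 to 0.019. DESeq2 size factors in edgeR, no filter, and 1 taken off each value changed no member's call or sign.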

Other observations

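Cyclin E1 and thymidine kinase were examined by library after their values were seen, as genes of S phase entry and nucleotide salvage outside the 47. Ccne1 had 87.04, 77.3 and 139 CPM in doxycycline libraries 1, 2 and 3, against 50.4, 49.97 and 78.9 CPM in untreated libraries 1, 2 and 3, with pair differences of 0.79, 0.63 and 0.82 on the log2 scale. Its paired estimate was 0.75 (SE 0.089, edgeR adjusted p = 2.2e-04). Tk1 had 56.9, 58.6 and 74.6 CPM in doxycycline libraries 1, 2 and 3, against 46.5, 39.8 and 54.4 CPM in untreated libraries 1, 2 and 3, and a paired estimate of 0.43 (SE 0.094, edgeR adjusted p = 0.0076).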
